A study of Mus musculus with 6 samples.

Results

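The A+T-rich distal peaks are stretches of open chromatin in crypts of the mouse intestine that lie away from gene starts and have a summit rich in A and T. ATAC-seq, in which Tn5 transposase cuts and tags accessible DNA, was run on crypts of 3 wild-type mice labelled Arid3a WT and 3 mice that carried a conditional Arid3a knockout (cKO). All animals, WT included, received tamoxifen on 3 consecutive days and were culled 1 month after the first dose. In this model a tamoxifen-inducible Cre under the Villin promoter deletes floxed Arid3a in the intestinal epithelium, so cells of other types that remain in a crypt preparation keep the gene. Each sample gave 1 list of called peaks. The 6 lists were merged over chromosomes 1 to 19 wherever peaks overlapped by 1 base or more. A region was kept when it was called in 3 or more samples, when its best summit lay over 2 kb from any transcription start site (TSS), and when the window from 100 bp before to 100 bp after that summit was at least 62% A+T. The best summit was the one whose fold, the enrichment of fragments over the local background, ranked highest within its own list. This rule found 1559 regions among 29691 distal consensus peaks in 3 or more samples, and 48871 consensus peaks of any position in 3 or more samples. The regions were chosen by peak presence, by the position of the summit and by base content, so none of these is a result of the comparisons that follow.

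Distal open chromatin peaks mark candidate enhancers, the elements that bind transcription factors and act on genes over a distance. ARID3A is a transcription factor whose ARID domain binds DNA rich in A and T. Several regulators of the intestinal epithelium also read A+T-rich words: the CDX homeodomain factors that set intestinal identity, the GATA factors of the small intestine and the forkhead (FOX) factors.

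Some of these regions were copies of repeated sequence. When these windows were aligned to each other, 239 of 1559 regions (15.3%) matched another region over at least 150 bases with at least 80% identity. Of the other 28132 distal peaks, 636 (2.26%) matched any distal peak at the same limits. Linking of the matches gave 1 group of 167 regions, 1 group of 43 and 10 groups of 2 to 5. The alignment was added after sequences of the strongest regions had been seen to resemble each other. A pair of copies of each large group is printed, read on the strand that aligns them, so that their likeness can be read. Capitals mark the GATA words AGATAA or TGATAA and the CDX words TTTATTG or TTTATGG, in either orientation.
Repeat group 1 near Kcnu1, chr8:25923971-25924171, plus strand: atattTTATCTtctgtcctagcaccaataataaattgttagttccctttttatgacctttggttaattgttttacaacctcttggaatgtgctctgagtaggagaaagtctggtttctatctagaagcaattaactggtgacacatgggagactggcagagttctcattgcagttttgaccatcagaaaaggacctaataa
Repeat group 1 near C2cd3, chr7:100402077-100402277, plus strand: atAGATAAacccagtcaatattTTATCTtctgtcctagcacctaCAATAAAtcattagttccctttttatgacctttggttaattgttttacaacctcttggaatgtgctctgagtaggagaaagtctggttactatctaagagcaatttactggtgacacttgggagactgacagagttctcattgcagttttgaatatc
Repeat group 2 near Slc4a7, chr14:14787875-14788075, plus strand: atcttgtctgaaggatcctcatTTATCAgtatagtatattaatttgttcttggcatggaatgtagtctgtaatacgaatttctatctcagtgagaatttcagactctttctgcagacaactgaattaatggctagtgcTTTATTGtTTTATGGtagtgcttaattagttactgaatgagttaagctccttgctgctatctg
Repeat group 2 near Gm6574, chr7:104525709-104525909, minus strand: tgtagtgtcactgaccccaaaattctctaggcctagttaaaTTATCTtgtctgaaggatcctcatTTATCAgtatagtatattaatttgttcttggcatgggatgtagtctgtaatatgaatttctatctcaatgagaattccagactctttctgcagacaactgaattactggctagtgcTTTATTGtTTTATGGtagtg
The copies of group 1 aligned over 179 bases with 94.4% identity, and those of group 2 over 158 bases with 96.8%. Both pairs carry a GATA word, and the group 2 pair carries both CDX words side by side.

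Most regions were not copies. The next set shows the strongest region without a copy, the regions with the largest rise and fall in rank among those whose genotypes did not overlap, and the 2 regions of highest A+T content. Here capitals mark ATCAAA or ATTAAA on either strand, the words used for ARID3.
Strongest region with no matching copy, near Gm34297, chr10:98593961-98594161, plus strand: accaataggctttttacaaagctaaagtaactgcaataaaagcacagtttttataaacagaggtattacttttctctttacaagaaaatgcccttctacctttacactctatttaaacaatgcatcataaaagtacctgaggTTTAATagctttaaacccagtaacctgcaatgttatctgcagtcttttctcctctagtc
Largest rise in cKO, intron of Ssh2, chr11:77280296-77280496, plus strand: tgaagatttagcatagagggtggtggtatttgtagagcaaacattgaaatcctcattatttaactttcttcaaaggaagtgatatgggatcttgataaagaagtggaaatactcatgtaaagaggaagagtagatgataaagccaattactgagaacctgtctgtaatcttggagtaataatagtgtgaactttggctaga
Largest fall in cKO, intron of Kat6a, chr8:22881079-22881279, plus strand: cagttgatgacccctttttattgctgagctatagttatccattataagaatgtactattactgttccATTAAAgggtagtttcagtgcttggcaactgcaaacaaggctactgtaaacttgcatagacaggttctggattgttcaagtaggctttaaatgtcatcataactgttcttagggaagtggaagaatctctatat
Highest A+T content, intron of Ugt2b35, chr5:87008698-87008898, plus strand: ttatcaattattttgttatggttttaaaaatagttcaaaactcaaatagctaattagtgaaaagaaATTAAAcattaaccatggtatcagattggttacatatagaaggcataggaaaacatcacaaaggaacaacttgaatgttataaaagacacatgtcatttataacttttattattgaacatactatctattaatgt
Next highest A+T content, near Gm5948, chr10:16764424-16764624, plus strand: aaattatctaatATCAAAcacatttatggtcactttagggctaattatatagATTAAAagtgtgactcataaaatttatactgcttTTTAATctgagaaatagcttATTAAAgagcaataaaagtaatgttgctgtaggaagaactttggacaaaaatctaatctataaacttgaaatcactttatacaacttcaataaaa
The Ssh2 window holds none of the ARID3 words and the window near Gm5948 holds 4. Coordinates are GRCm38 and 1-based.

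The copies stood high in the lists. The list percentile of a region is the rank of its fold within all peaks of a sample's list, in percent. The median over regions of the list percentile was 64.4 for group 1, 61.4 for group 2, 45.8 for the 1320 regions that matched no other region, and 43.0 for the other distal peaks. A GATA word lay in 134 of the 167 regions of group 1 (80.2%), against 53.6% of regions with no match. A CDX word lay in 36 of the 43 regions of group 2 (83.7%), against 31.0%. ARID3 words lay in 29.3% of group 1 and in 6.98% of group 2, against 47.3% of the regions with no match.

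Copies of the same repeats outside called peaks were also counted. On chromosomes 1 to 19 a representative of group 1 matched 735 places at the same limits, of which 188 (25.6%) lay in a consensus peak of 3 or more samples. For group 2 these numbers were 59 of 236 places (25%). The groups were found among regions chosen for lying in such peaks, so these shares are a description, and a copy outside a peak is not shown to be closed. How reads from near-identical copies were placed was not tested.

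The samples called the regions unevenly. WT samples 1, 2 and 3 called 1057 (67.8%), 1298 (83.3%) and 1429 (91.7%) of the 1559 regions. cKO samples 1, 2 and 3 called 1501 (96.3%), 1191 (76.4%) and 1468 (94.2%). WT 1 called fewest, and cKO 2 fell below WT 2 and WT 3, so the genotypes overlapped. The mean share called was 80.9% ± 12.1 in WT and 88.9% ± 10.9 in cKO (SD, n = 3), and the difference of 8.04 points was smaller than either SD. The other distal peaks gave 82.2% ± 14.7 and 89.3% ± 8.89, a difference of 7.03 points. The lists themselves held 39773, 49764 and 54010 peaks in WT, and 57140, 45557 and 50444 in cKO, so WT 1 and cKO 2 were also the shortest lists of their genotypes.

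Presence was a matter of degree for most regions. All 6 samples called 850 regions (54.5%, against 55.6% of other distal peaks). Calls in 3, 4 and 5 samples were found for 241, 219 and 249 regions (15.5%, 14.0% and 16.0%). For the other distal peaks these shares were 13.8%, 13.6% and 17.0%. The most frequent incomplete pattern, in 144 regions, was a call in every sample but WT 1, the shortest list (9.24%, against 11.4% of other distal peaks). More cKO than WT samples called 432 regions (27.7%), and more WT than cKO samples called 147 (9.43%). For the other distal peaks these shares were 26.1% and 9.36%. A call in 3 cKO and 0 WT samples was seen for 20 regions (1.28%, other distal peaks 0.892%), and the reverse for 6 (0.385%, other distal peaks 0.206%).

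**Figure D1:**
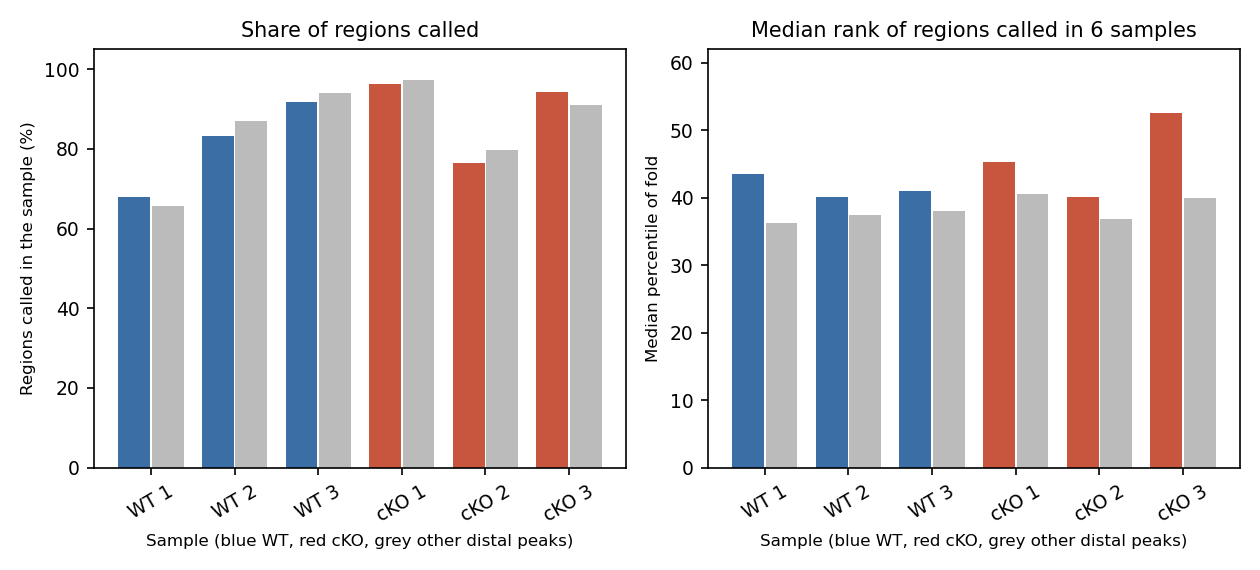
Left, percent of the 1559 A+T-rich distal peaks (coloured) and of the 28132 other distal peaks (grey) called in each sample; right, median percentile of fold over the regions called in all 6 samples (850 and 15646). WT 1 had the lowest share called, 67.8%, and cKO 3 the highest median percentile, 52.6.

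To compare ranks without the effect of list length, the fold of each sample was turned into a percentile among the 32147 consensus peaks called in all 6 samples (shared percentile), and the shift of a region is its mean in cKO minus its mean in WT. The 850 regions called in all samples had median shared percentiles of 43.5, 40.2 and 41.0 in WT 1, 2 and 3 and of 45.3, 40.2 and 52.6 in cKO 1, 2 and 3. cKO 3 stood above the other samples, and cKO 2 was level with WT 2. The means of these medians were 41.5 ± 1.71 in WT and 46.0 ± 6.23 in cKO (SD, n = 3), a difference of 4.47 that was within the SD of cKO. The other distal peaks had medians of 36.3, 37.4 and 38.0 in WT and 40.6, 36.9 and 39.9 in cKO. The 850 A+T-rich regions, repeat copies included, therefore ranked above the other distal peaks in each of 6 samples. The gap was 2.80 to 7.20 points in WT, 4.73 in cKO 1, 3.24 in cKO 2 and 12.6 in cKO 3. The 705 of these regions that matched no other region had medians of 41.4, 37.3 and 37.3 in WT. In cKO 1, 2 and 3 their medians were 41.7, 37.1 and 51.0. They were nearly level with the other distal peaks in WT 2 and cKO 2 and lower in WT 3. In WT 1, cKO 1 and cKO 3 they ranked higher.

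The median shift of the 850 regions was 3.04 percentile points (interquartile range -3.65 to 10.7), against 0.88 for the other distal peaks and -0.64 for all shared peaks. It was positive for 532 regions (62.6%), against 54.3% of other distal peaks and 46.1% of all shared peaks. Without cKO 3 the median shift was 0.67 and 52.3% of regions were positive, so the size of the shift rested on this library. Without cKO 2 it was 5.60. When percentiles were centred within bins of A+T content the median shift became -1.36 and 45.4% of regions were positive. This centring removes by construction any shift that peaks of like A+T content have in common. The regions were most of the peaks in their bins, 676 of 767 at 62 to 66% A+T and 174 of 195 from 66% on. They were thus centred largely on their own median.

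The shift rose with A+T content below the 62% threshold too, and did not rise further from 66% on. Among distal peaks called in all samples it was -0.06 points below 45% A+T, 0.72 at 45 to 50%, 1.13 at 50 to 55%, 1.99 at 55 to 58%, 2.19 at 58 to 62%, 3.32 at 62 to 66% and 2.5 from 66% on. In cKO 3 the median shared percentile went from 37.6 in the lowest bin to 52.8 at 62 to 66%. In the other samples the same pair of bins differed by 0.79 points in WT 2 and by 1.33 to 5.40 in the rest. Percentiles are ranks among all shared peaks, so a rise of some goes with a fall of others. The 7977 shared peaks of any position below 35% A+T had medians of 76.5, 74.9 and 74.2 in WT. In cKO 1, 2 and 3 these were 69.5, 75.9 and 68.8. Regions just inside the threshold, at 62.2% A+T (223 regions), had a median shift of 3.63 and were called in all samples in 52.5% of cases, and distal peaks just outside it, at 61.7% (232), had 2.80 and 55.2%.

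**Figure D2:**
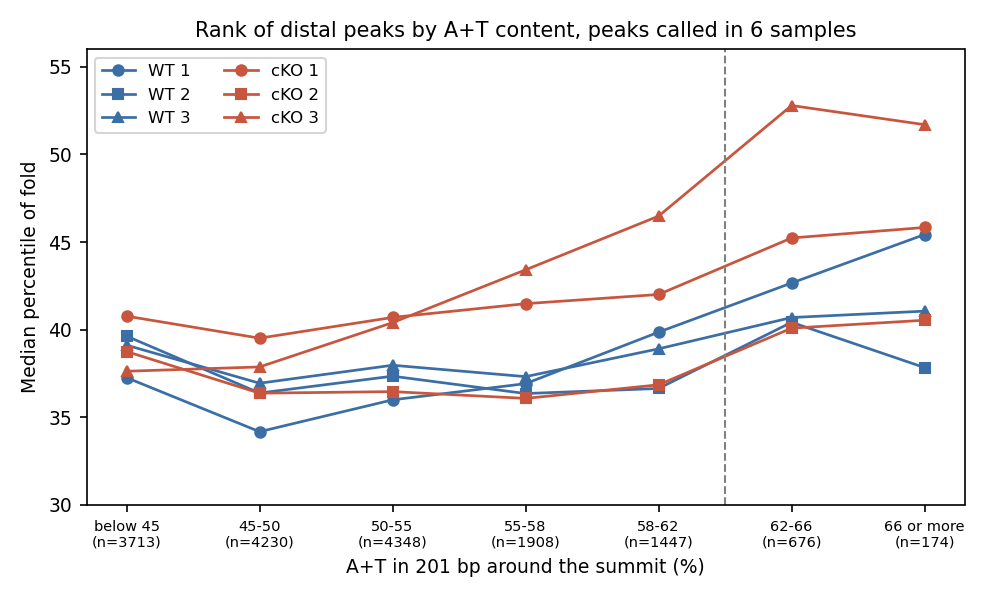
Median shared percentile of fold (vertical axis, from 30) of distal peaks called in 6 samples, by A+T content of the window around the summit (horizontal axis, with the number of peaks), 1 line per sample, WT blue and cKO red. The dashed line is the 62% threshold. The cKO 3 line rises to 52.8 while the others stay at or below 45.8.

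No single region passed the test between genotypes. limma, fitted to the shared percentiles of all 32147 peaks with Benjamini-Hochberg adjustment at 0.05, called 0 peaks higher and 0 lower in cKO (0% of all peaks in each direction), with a lowest adjusted p of 0.711. At an unadjusted p under 0.05, 66 of the 850 regions (7.76%) were higher in cKO and 7 (0.824%) lower, beside 3.92% and 2.72% of all shared peaks and 5.16% and 1.94% of the other distal peaks. In 84 regions (9.88%) the lowest cKO percentile was above the highest WT percentile, and in 25 (2.94%) the reverse held, beside 5.87% and 6.09% of all shared peaks and 7.45% and 5.12% of the other distal peaks. Without cKO 3, 11.7% of regions were non-overlapping and higher and 8.21% lower, beside 8.50% and 8.80% of all shared peaks, where fewer samples make non-overlap more frequent by construction. When percentiles were centred within bins of A+T content, 50 regions (5.88%) were non-overlapping and higher and 62 (7.29%) lower, beside 5.94% and 5.78% of all shared peaks. As the regions fill most of their bins, a near-even balance is set by construction. At an unadjusted p under 0.05 there were with this centring 43 higher and 42 lower of 850, beside 2270 of all 32147 shared peaks in both directions together.

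The regions that moved most were chosen by the size of their shift among those with no overlap, and their values are a description. The largest rise was in an intron of Ssh2, a cofilin phosphatase that acts on actin filaments. Its shared percentiles were 7.0, 21.7 and 25.6 in WT and 81.9, 32.0 and 66 in cKO. The lowest cKO value was just above the highest WT value, and the shift was 41.9 ± 13.1 (SE; limma adjusted p = 0.711). Its window, printed above, holds an HNF4 word (CAAAGTCCA or CAAAGTTCA), a GATA word and a TCF word (CTTTGAA or CTTTGAT). A region in an intron of Exoc4, a subunit of the exocyst that tethers vesicles, had 31.5, 10.3 and 45 in WT and 66.9, 46.0 and 89.5 in cKO, a shift of 38.5 ± 13.4. A region in an intron of Lyst, a regulator of lysosomes, had 16.7, 4.34 and 13.2 in WT and 67.2, 42.0 and 27.2 in cKO, a shift of 34.0 ± 10.3, and belonged to repeat group 1. Intergenic regions nearest to Gm5518 on chromosome 19 and CT030715.2 on chromosome 17, both pseudogenes, shifted by 36.2 ± 9.72 and 30.7 ± 9.74.

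The largest fall was in an intron of Kat6a, a histone acetyltransferase, with 49.4, 38.2 and 19.1 in WT and 18.4, 4.77 and 10.5 in cKO. WT 3 and cKO 1 lay less than 1 point apart, and the shift was -24.3 ± 8.29 (limma adjusted p = 0.711). An intron of Mfsd13b had a shift of -22.7 ± 9.21, with WT from 19.2 to 56.5 and cKO from 7.99 to 18.6. The shifts of the remaining pair on chromosome 6, nearest to Gm15593 and Gm25283, were -23.2 ± 7.98 and -22.9 ± 11.0. The adjusted p was 0.711 for each of the rises and falls named here.

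**Figure D3:**
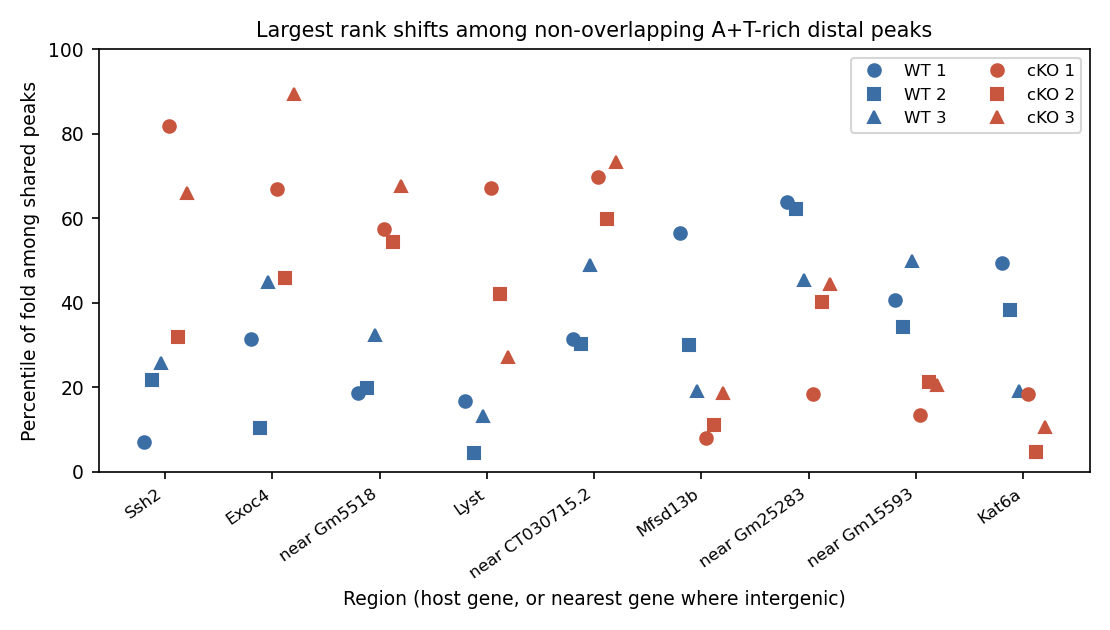
Shared percentile of fold (vertical axis) in each sample for the 5 regions with the largest rise and the 4 with the largest fall among those whose genotypes did not overlap, named by host gene or nearest gene. Points are samples, WT blue and cKO red, with marker shape giving the replicate number. The Ssh2 region reaches 81.9 in cKO 1 and 32.0 in cKO 2, above a highest WT value of 25.6.

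Repeat group 2 had the largest shift among the sets compared. The 30 of its regions called in all samples had median shared percentiles of 43.5, 40.9 and 52.3 in WT and 66.4, 52.2 and 68.6 in cKO. cKO 2 was level with WT 3 and the other cKO samples were higher. The median shift was 11.1 points, positive in 24 of 30 regions, and 6 regions (20%) were non-overlapping and higher and 0 lower, beside the 5.87% and 6.09% of all shared peaks. The group 1 regions called in all samples had medians of 55, 55.2 and 55.8 in WT and 61.5, 54.6 and 64.8 in cKO, a median shift of 2.73, with 10 regions (9.90%) non-overlapping and higher and 3 (2.97%) lower. The 705 regions with no match had a median shift of 2.66, with 68 higher (9.65%) and 22 lower (3.12%). Copies of 1 repeat share sequence and are not independent of each other, and no test was made between these sets.

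**Figure D4:**
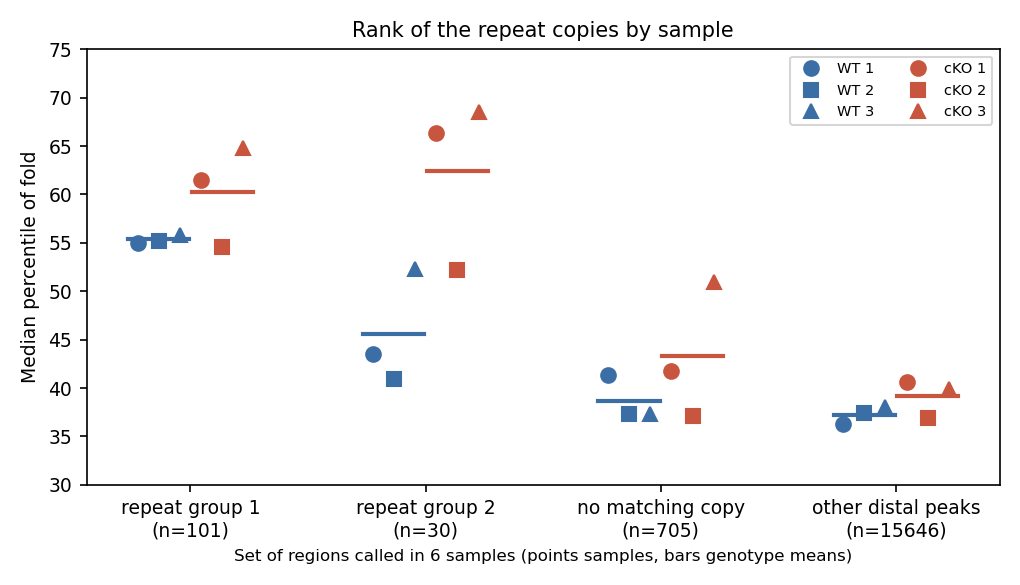
Median shared percentile of fold (vertical axis, from 30) by sample for repeat group 1, repeat group 2, regions with no matching copy and other distal peaks, all called in 6 samples. Points are samples, bars genotype means. In group 2 the means are set apart by cKO 1 and cKO 3 at 66.4 and 68.6, and cKO 2 lies at the level of WT 3.

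The strongest regions, ranked by their lowest list percentile, were mostly repeat copies. Of these 8, 6 belonged to group 1 or 2. The first, a group 2 copy in an intron of the noncoding gene 6820431F20Rik on chromosome 8 with 90.0% of its window masked as repeat, had list percentiles of 92.0, 94.0 and 98.3 in WT and 99.95, 95.3 and 98.9 in cKO. A group 2 copy near Ifi27l2b, a member of an interferon-induced family, had 97.8, 92.5 and 94.7 in WT and 94.7, 91.3 and 99.1 in cKO. These values stood above 91 in each list of both genotypes. The 2 strong regions that were not copies lay near the noncoding genes Gm34297 on chromosome 10, with 91.8, 93.7 and 91.7 in WT and 94.3, 95.3 and 97.3 in cKO, and Gm40264 on chromosome 5, with 90.9, 90.7 and 88.2 in WT and 95.3, 94.5 and 98.8 in cKO.

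Copies also appeared among the regions called in 1 genotype only. Of the 5 regions of highest lowest list percentile called in 3 cKO and 0 WT samples, 2 were group 1 copies, and of the 5 called in 3 WT and 0 cKO samples 1 was. Over all regions with such calls, group 1 held 2 of the 20 cKO-only and 1 of the 6 WT-only regions. Its part of the whole set was 167 of 1559 regions. A copy of each kind is printed because copies of the same repeat were called in opposite genotypes. Capitals would mark ARID3 words, of which neither window has any.
Called in cKO only, near Gm6851, chr7:40181500-40181700, plus strand: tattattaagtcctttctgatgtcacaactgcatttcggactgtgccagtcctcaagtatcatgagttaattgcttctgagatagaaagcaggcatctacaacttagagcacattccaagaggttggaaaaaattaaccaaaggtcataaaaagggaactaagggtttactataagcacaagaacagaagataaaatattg
Called in WT only, near Gm6947, chr1:71475751-71475951, plus strand: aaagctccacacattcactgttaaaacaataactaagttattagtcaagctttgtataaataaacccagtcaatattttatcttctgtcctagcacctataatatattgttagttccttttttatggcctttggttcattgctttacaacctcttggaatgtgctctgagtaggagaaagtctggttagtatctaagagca
The region near Gm6851 had list percentiles of 45.2, 54.3 and 56.8 in cKO, and its pileup, the number of fragments over the summit recovered from fold and p, was 24, 21 and 27. The region near Gm6947 had 52.8, 61.6 and 61.4 in WT, with pileups of 17, 20 and 21. Both stood in the middle of their lists and not at the calling limit. The rest ranked lower: the other 3 named cKO-only regions outside group 1 had lowest list percentiles of 44.6, 37.2 and 29.6, and the other 4 WT-only regions 26.3, 24.5, 18.3 and 12.4. A missing call does not show that a site was closed.

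Motif words differed in how far they exceeded other words of the same base content. Each word was searched on both strands of the window, and the same letters read backwards, which have the same base content, served for comparison. The ARID3 words ATCAAA or ATTAAA lay in 688 regions (44.1%, Wilson 95% interval 41.7 to 46.6%), against 17.8% of other distal peaks and 36.5% of distal peaks at 58 to 62% A+T. Read backwards they lay in 40.1% of the A+T-rich regions, below that interval but by less than for GATA or CDX, and in 13.5% of other distal peaks. In the regions that matched no other region the shares were 47.3% and backwards 42.3%. GATA words lay in 56.8% and backwards in 28.0%, with 25.4% and 11.9% in other distal peaks. CDX words lay in 31.2% and backwards in 9.43%, with 10.6% and 4.27% in other distal peaks. HNF4 words, read by the nuclear receptors HNF4A and HNF4G of the gut epithelium, lay in 5.0% and backwards in 0.128%, with 3.59% and 0.38% in other distal peaks.

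FOX words (TGTTTAC or TATTTAC) lay in 14.9% and backwards in 15.8%. TCF words, the sites through which Wnt signalling acts, lay in 16.4% and backwards in 8.15%. AP-1 words (TGACTCA or TGAGTCA), bound by Fos and Jun dimers, lay in 9.88% and backwards in 4.11%, with 11.0% and 4.11% in other distal peaks. KLF words (GGGTGTGG or GGGCGTGG), rich in G, lay in 0.898% against 7.4% of other distal peaks. Of these 8 motifs, 146 regions (9.36%) held none and 570 (36.6%) held 2. Overlap between words was allowed, and a word is not evidence that a factor was bound.

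**Figure D5:**
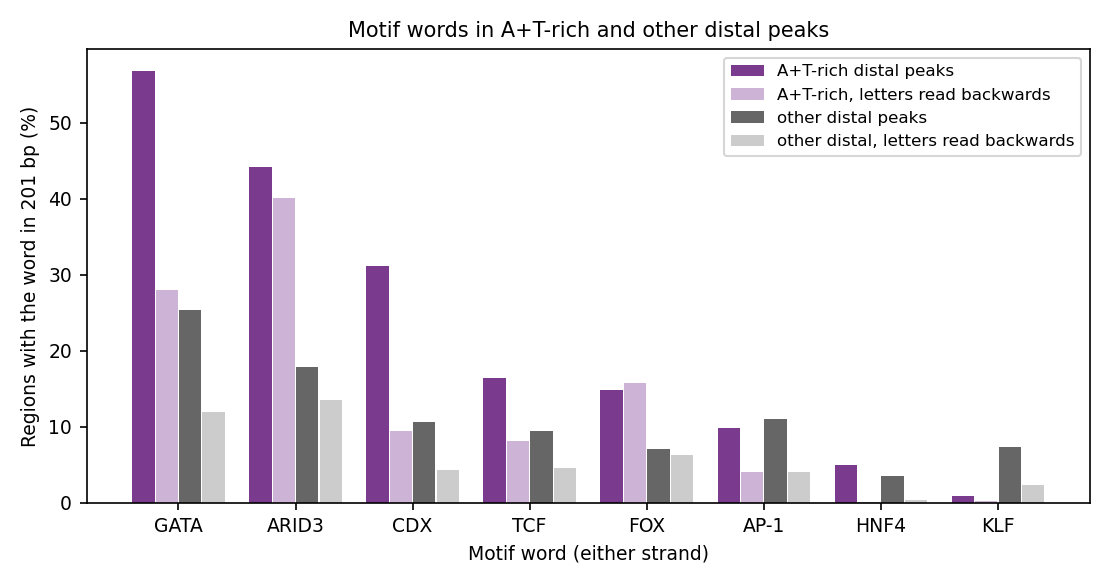
Percent of regions (vertical axis) with each motif word in the window around the summit on either strand, for the A+T-rich distal peaks and the other distal peaks, with the same letters read backwards beside each. GATA and CDX words exceed their backwards letters (56.8% and 28.0%, 31.2% and 9.43%). ARID3 and FOX words differ less from theirs (44.1% and 40.1%, 14.9% and 15.8%).

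CDX and ARID3 words were fewer at the summit than beside it. Per 1000 regions there were 52.0 CDX words within 20 bp of the summit and 102 at 20 to 40 bp. The other distal peaks had 17.4 and 32.8. ARID3 words were fewest within 20 bp too, with 97.5 there and 126 at 20 to 40 bp, and their letters read backwards had 77.6 and 128. Backwards letters of CDX had 14.8 and 24.4 and those of TCF 12.2 and 26.3. Those of GATA had 72.5 and 71.2, of FOX 28.2 and 28.9 and of AP-1 12.2 and 6.41. A dip was thus present for some letters with no assigned factor and slight or absent for others. The GATA, HNF4, FOX, TCF and AP-1 words were also fewer within 20 bp than at 20 to 40 bp.

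The shift was also taken by motif. Regions with an ARID3 word (370) had a median shift of 3.51 and those without (480) 2.91. Regions with an AP-1 word (87) had a median shift of -0.01, with 4 (4.60%) non-overlapping and higher and 1 (1.15%) lower, and those without (763) had 3.61, with 80 (10.5%) higher and 24 (3.15%) lower. In the other distal peaks the median shift was -1.40 with an AP-1 word, with 4.23% higher and 8.51% lower, and 1.18 without, with 7.90% and 4.65%. Regions with a TCF word (138) had a median shift of 5.38, and in cKO 3 their median shared percentile was 58.9. Those without (712) had 2.73 and 52.0. Non-overlapping and higher were 10.9% with a TCF word and 9.69% without, and lower 2.90% and 2.95%. The TCF word CTTTGAT contains an ARID3 word on the other strand. Of all regions with a TCF word 62.9% held an ARID3 word, against 44.1% of the 1559 regions. These differences between subsets were not tested.

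Apart from their summits, the regions had A+T-rich surroundings, few CpG dinucleotides and more repeat sequence. Median A+T content was 64.2% in the window and 59.8% in the flanks from there to 500 bp from the summit, against 50.2% and 53.1% for other distal peaks. The window was thus richer in A+T than its flanks in these regions, as their selection sets, and poorer than its flanks in the other distal peaks. A window without any CpG was found in 33.9% of regions and in 8.78% of other distal peaks. The median share of masked bases was 12.4% against 1.49%. The longest run of A and T had a median of 10 bases against 6. Peak width hardly differed, with medians of 820 and 828 bp.

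The regions lay in introns and between genes. The median distance to a TSS was 13667 bp, against 10620 bp for other distal peaks, and 12% lay over 50 kb from any TSS against 6.66%. Introns held 797 regions (51.1%), intergenic sequence 718 (46.1%) and exons 44 (2.82%, against 5.06%). Their share of the distal peaks of a chromosome ran from 3.77% on chromosome 11 to 7.18% on chromosome 3. The highest A+T contents were 75.6% in the intron of Ugt2b35, a glucuronosyltransferase, called in 5 samples, and 75.1% near Gm5948, called in all 6.

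Within 50 kb, 1264 genes were the nearest to 1372 regions (88.0%, against 93.3% of other distal peaks). Foxp1, which encodes a forkhead repressor, had most, 6 of its 22 distal peaks. In all samples 5 of these were called. The strongest had list percentiles of 70.8, 66.3 and 70.0 in WT and 71.4, 71.3 and 81.8 in cKO. The snRNA gene Gm23003 on chromosome 16 had 5 of 7, and the pseudogene Gm43655 had 3 of 3. Gm19095 and Neo1, a netrin receptor, had 3 of 5 each, Hnf4g and Pibf1 3 of 6, and Ptprd, a receptor phosphatase, 3 of 10.

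Regulators of the epithelium had 10 regions among 39 genes listed (0.641% of regions, against 0.491% of other distal peaks). Hnf4g, a nuclear receptor of absorptive cells, had the strongest, in its introns. Their list percentiles ran from 72.5 to 89.7 in WT and from 60.4 to 92.4 in cKO, and the genotypes overlapped for each of the 3. The strongest had 78.4, 86.1 and 89.7 in WT and 91.2, 84.3 and 90.5 in cKO. An intron of Nr5a2, a nuclear receptor of crypts, had 68.5, 77.0 and 81.3 in WT and 69.9, 78.1 and 67.6 in cKO. An intron of Arid5b, another ARID-domain gene, had 64.4, 65.7 and 61.8 in WT and 69.4, 63.6 and 62.9 in cKO. An intron of Zfhx3 had 51.8, 56 and 61.3 in WT and 54.1, 51.2 and 61.4 in cKO. In none of these did the genotypes separate.

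The absorptive list had 4 regions near 3 of 34 annotated genes (0.257%, against 0.270%). A region 35.5 kb from the TSS of Sis, the sucrase-isomaltase of the brush border, had 91.9, 81.3 and 82.0 in WT and 91.6, 77.6 and 88.6 in cKO. A region near Slc5a1, the sodium-glucose transporter, had 48.8, 24.2 and 52.7 in WT and 50.2, 36.9 and 53.3 in cKO. An intron of Mgam, the maltase-glucoamylase, was called in 5 samples, and WT 1 lacked it. Its list percentiles were 32.1 in WT 2, 12.9 in WT 3 and 26.5, 37.9 and 47.9 in the cKO samples. Again the genotypes overlapped.

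The secretory list had 2 regions among 28 genes (0.128%, against 0.110%). The region 25.6 kb from Atoh1, the factor that commits progenitors to secretory fates, had shared percentiles of 33.4, 35 and 46.1 in WT and 70.9, 46.4 and 78.4 in cKO. WT 3 and cKO 2 were level to within 1 point, and the shift of 27.1 ± 10.8 did not pass limma (adjusted p = 0.711). Its pileups were 17, 19 and 30 in WT and 56, 22 and 56 in cKO. A region near Fcgbp, a mucus protein of goblet cells, ranked low, with list percentiles of 12.5, 11.2 and 17.4 in WT and 12.8, 24.4 and 25.6 in cKO.

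Stem cell and proliferation genes had 2 regions among 26 genes (0.128%, against 0.259%), near Olfm4, a crypt base marker, and in Rnf43, a Wnt receptor ligase. Each was called in 3 samples, at list percentiles of 7.36 to 17.7. Leukocyte markers and epithelial markers had 0 regions (0%, against 0.0107% and 0.164% of other distal peaks), and the stroma and endothelium list had 3 (0.192%, against 0.0746%). The region near Vwf had list percentiles of 84.2, 83.9 and 79.3 in WT and 71.3, 58.7 and 79.3 in cKO. Dcn and Pecam1 had regions called in 5 and 4 samples. Arid3a had 2 distal peaks of 32.3% and 39.8% A+T, so 0 of its peaks were in the set. The peaks over the gene numbered 2, 4 and 4 in WT, and 4, 2 and 4 in cKO, and do not check the deletion of its floxed part. Promoter peaks in all 6 samples were found at 10 of 10 epithelial marker genes, at 1 of 10 leukocyte and at 3 of 10 stromal or endothelial ones. The part of these other cells in the results was not tested.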

How the data were processed

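ATAC-seq was done by the authors on 3 WT and 3 cKO crypt samples. Per the study's methods, nf-core/atacseq 1.2.1 aligned reads to GRCm38, removed blacklisted regions and called narrow peaks per sample with an effective genome size of 2.6 Gb, and no input control was described. The deposited fold is the ratio of pileup to background after a single count was added to each. The deposited −log10 p and −log10 q values and score come from the caller. Read counts were not used here. Background coverage, recovered from fold and p, was 1.75 to 2.29 fragments per base, and pileups came out whole for 100% of peaks solved. Intervals cover counting error only.

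The sequence was GRCm38.p6, soft-masked for repeats, and genes came from GENCODE M21. Percentiles were computed in Python 3.11.15 with pandas 2.3.3, differences with limma 3.58.1 (trend) in R 4.3.3 and matches with blastn 2.17.0. The script was tested on simulated data. At the spread of these samples limma called 0 of 100 simulated peaks with a shift of 30 points, and 5 of 100 with a shift of 50. At 0.25 times the spread it called 99 and 100. A lack of calls here therefore does not show that shifts of such size are absent. Values per region were the highest fold among its peaks. Named regions were the 8 of highest lowest list percentile, the 5 largest shifts in each direction without overlap, 5 called in each genotype alone, 5 of highest A+T content, the 8 genes nearest to most regions and genes of fixed lists. One of these regions is not reported here. The labels do not say more of the animals, so the tests measure the spread between these samples. The members, words and lists were chosen with earlier results of these data known. Alternatives changed the A+T threshold and window, TSS distance, presence, q limit, list length, merging, ranking, scale, base composition, block and samples.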

Additional observations from a re-analysis of the deposited data

How the results depend on the processing

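Depth and call thresholds limit every count, since a region missed in a short list is not shown to be closed, and 3 samples per genotype cannot give an exact permutation p below 0.1. limma called 0 regions in either direction under every alternative run, which says nothing about stability with 3 samples per genotype and this spread. Regions numbered 2635 at 60% A+T, 562 at 65% and 850 when 6 samples were needed. Non-overlapping regions higher and lower in cKO numbered 136 (9.58%) and 44 (3.10%) at 60% A+T, and 33 (11.1%) and 12 (4.03%) at 65%. With a shorter A+T window (50 bp either side) they numbered 129 (10.3%) and 39 (3.11%). A longer window (200 bp either side) left 54 higher (8.64%) and 26 lower (4.16%). Under each of these, 5.87% of all shared peaks were higher and 6.09% lower. A −log10 q of at least 5 left 59 higher (8.99%) and 11 lower (1.68%), beside 5.75% and 6.04% of all shared peaks. ARID3 words were in 40.7% of regions with the shorter window, 39.5% with the longer and 47.3% without regions that matched another region, an alternative chosen after seeing the data. The median shift was 0.067 on the log2 scale of quantile-normalized fold. It became -1.36 when percentiles were centred within A+T bins, by which a shift common to regions of like base content is removed. Under this centring, for these counts an alternative added after seeing the data, 50 regions (5.88%) were non-overlapping and higher and 62 (7.29%) lower. The regions fill most of their bins, so this balance is set near even by construction. With 1 sample left out, regions ranged from 1361 to 1519, the difference in share called from 1.42 to 13.4 points, higher non-overlapping regions from 100 to 234 and lower ones from 44 to 76 (8.50% to 16.1% and 8.80% to 23.6% of all shared peaks, since fewer samples raise both by construction), the median shift from 0.67 (without cKO 3) to 5.60 (without cKO 2) and the ARID3 share from 43.8% to 44.6%. The shifts of the regions named for their rise or fall and of the Atoh1 region kept their sign under each alternative that held the region. The former were chosen for lack of overlap between genotypes, and the Atoh1 region had none either. A kept sign is thus largely set by the choice and does not show stability. Deviations of samples with the same replicate number correlated at -0.29, -0.01 and 0.14 across peaks, and those with other numbers at -0.36 to 0.33. With 3 samples per genotype the deviations within a genotype are tied to each other. These values therefore cannot decide whether replicate numbers pair the samples. With the replicate block limma called 0 regions. At an unadjusted p under 0.05, 60 of 850 were then higher and 4 lower, beside 1856 of all 32147 shared peaks in both directions together. With the block and centring within A+T bins limma called 0, with 39 higher and 40 lower, beside 1943 of 32147.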
